A study of Mus musculus with 20 samples.

Results

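The acyl-CoA binding protein ACBP, also called diazepam binding inhibitor (DBI), its paralogs that carry an acyl-CoA binding domain, and the mitochondrial protein TSPO were followed in mouse liver RNA. The set was given by name and held 7 genes of the 48440 in the count table: Dbi, Acbd3, Acbd4, Acbd5, Acbd6, Acbd7 and Tspo. Each symbol matched 1 row, and 6 of the 7 passed the filter on low counts; Acbd7 had no read in any liver. Bulk RNA-seq had been done on the livers of 20 wild-type female mice, 8 weeks old at the start, 5 mice in each of 4 groups. The strain is C57BL/6 in the labels and C57BL/6J in the study's methods. IgG_Veh received an IgG2a isotype control antibody and vehicle, and IgG_CORT the same isotype with corticosterone (CORT, the main glucocorticoid of rodents) in the drinking water. DBI_Veh received a monoclonal antibody that neutralizes ACBP/DBI, with vehicle, and DBI_CORT that antibody with CORT. All mice were thus injected intraperitoneally with an antibody and were killed after 5 weeks, and none lacked the Dbi gene. The antibody acts on protein outside cells, so that the RNA values below do not measure how well it worked.

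ACBP is a small cytosolic protein that binds long-chain acyl-CoA esters and carries them between membranes and enzymes, and it is abundant in hepatocytes. It also leaves the cell along a route tied to autophagy, and outside the cell it acts on GABA-A receptors. TSPO, once known as the peripheral benzodiazepine receptor, lies in the outer mitochondrial membrane, where ACBP and its peptides bind it, and it is known from steroid-forming cells and from macrophages. The paralogs join the same domain to other parts: ACBD3 sits at the Golgi apparatus, ACBD4 and ACBD5 tether peroxisomes to the endoplasmic reticulum, ACBD6 assists protein N-myristoylation, and ACBD7 is a short form close to ACBP.

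The upstream sequences of 2 members are shown since they belong to the one with the lowest unadjusted p under CORT and isotype and to the one without reads. RefSeq promoters were found for 4 of the 7 members, and each run is the 250 bases before a start site, 5' to 3' on the gene's strand, build GRCm38.p6. Both strands were searched for GGGCGG (the GC box), for CCAAT (a box common in promoters), for TATAAA (the TATA box), for AGAACA (the half-site of the glucocorticoid receptor) and for AGGTCA (a half-site of other nuclear receptors), and capitals mark every match. No 2 of these motifs overlap in the runs.
Acbd5, chr2:23067951-23068200, plus strand: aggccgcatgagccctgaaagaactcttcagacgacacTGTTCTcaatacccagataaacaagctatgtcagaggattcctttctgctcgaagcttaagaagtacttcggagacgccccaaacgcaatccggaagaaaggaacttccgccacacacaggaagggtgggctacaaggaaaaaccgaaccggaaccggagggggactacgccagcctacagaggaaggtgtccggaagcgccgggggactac
Acbd7, chr2:3335918-3336167, plus strand: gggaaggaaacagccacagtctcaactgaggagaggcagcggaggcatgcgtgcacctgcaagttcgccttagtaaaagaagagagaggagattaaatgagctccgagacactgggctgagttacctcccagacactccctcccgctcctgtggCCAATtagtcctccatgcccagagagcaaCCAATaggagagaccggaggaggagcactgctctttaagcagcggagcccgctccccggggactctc
The Acbd7 window held 9 CpG and 57.6% G or C, where the median of 32851 promoters was 6 CpG and 52.4%, with CCAAT at 2 places, a motif of 33.8% of all promoters. The Acbd5 window held 15 CpG, 54.4% G or C and 1 AGAACA read on the other strand, a motif of 16.1% of all promoters. A second RefSeq start of Acbd5, with its window at chr2:23068822-23069071, had none of the 5 motifs. A match is only a run of letters, and nothing was measured on these stretches.

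Dbi lies on chromosome 1, from 120041010 to 120048808 on the minus strand, in GRCm39 with GENCODE M39, as matched by gene identifier. Acbd3 (chromosome 1, 180553571 to 180583653), Acbd6 (chromosome 1, 155433779 to 155567076), Acbd4 (chromosome 11, 102992198 to 103006716), Acbd5 (chromosome 2, 22958179 to 23005574), Acbd7 (chromosome 2, 3337169 to 3342035) and Tspo (chromosome 15, 83447735 to 83458406) all lie on the plus strand. The counting's strand setting is not given in the sources used here, so that reads of a gene and of an opposite one that overlaps it cannot be told apart. For Dbi that share is small: 15.5% of its exon bases lie opposite 3110009E18Rik, whose mean count per liver was 20.3 against 12887.2 for Dbi. It is larger for Tspo, with 24.3% of exon bases opposite Mcat and Ttll12 (mean counts 284.1 and 111.5, Tspo 1062.4). Acbd3 had 4.28% of its exon bases opposite Gm37768, whose mean count was 46.2 against 197.8 for Acbd3. Acbd5 had 10.9% opposite Mastl, whose mean count was 12.85 against 2742.8 for Acbd5. Acbd4 had 49.5% of its exon bases opposite Plcd3 and Gm57337, and Plcd3 had a mean count of 56.0 against 1183.4 for Acbd4; Gm57337 was not analysed here. Copies elsewhere in the genome, of at least 100 bases and 95% identity, covered none of the longest coding transcripts of Dbi, Acbd4 and Acbd7, 15.4% of that of Acbd5, 6.87% of that of Tspo, 3.15% of that of Acbd3 and 3.21% of that of Acbd6.

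Total counts on genes were 14934926 to 20299999 per liver, and 3 counts, the limit that a count of 0 allows in the smallest library, were 0.201 CPM, which covers counting error only. CPM are counts scaled to a common library size with TMM, a factor that levels libraries of different composition. All 8 hepatocyte markers were found in the livers. Replicate 5 of DBI_Veh stood apart, with a mean correlation to the other livers of 0.859. It also had the lowest summed hepatocyte markers (38772 CPM, the other 19 livers 68432 to 138274). Replicates 1 and 2 of IgG_CORT were next in mean correlation (0.887 and 0.890). Replicate 4 of IgG_Veh (0.892) and replicate 5 of IgG_CORT (0.896) followed without a clear gap and were kept. The 3 livers of lowest mean correlation, a cut by rank, are called below the livers that stood apart. Results are also given without these 3 livers. In whole liver, fewer cells of a type and less RNA per cell cannot be told apart.

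Per kilobase of exon, Dbi was the highest of the family by a wide margin. Its level was 395 ± 94.1 CPM per kb (SD, n = 20), with the 20 livers between 151 and 538. Tspo followed with 19.6 ± 6.18, Acbd5 with 15.9 ± 5.11, Acbd4 with 8.39 ± 1.68, Acbd6 with 5.17 ± 0.916 and Acbd3 with 1.33 ± 0.387 CPM per kb. The Dbi level was a median of 21.0 times that of Tspo, and the ranges of these neighbours did not meet. Tspo was above Acbd5 in only 14 of 20 livers, so that this order lies within the spread, and it turned around when the longest transcript was taken as the length (23.3 against 32.6 CPM per kb). Acbd5 was above Acbd4, Acbd4 above Acbd6, and Acbd6 above Acbd3 in each of the 20 livers. Acbd7 had 0 of 344395300 counts over all livers, which allows up to 0.00871 CPM. Among the 6 acyl-CoA binding members, Dbi made up 92.4% ± 2.34 (SD, n = 20) of the level per kb, from 85.3% to 94.7% per liver.

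**Figure D1:**
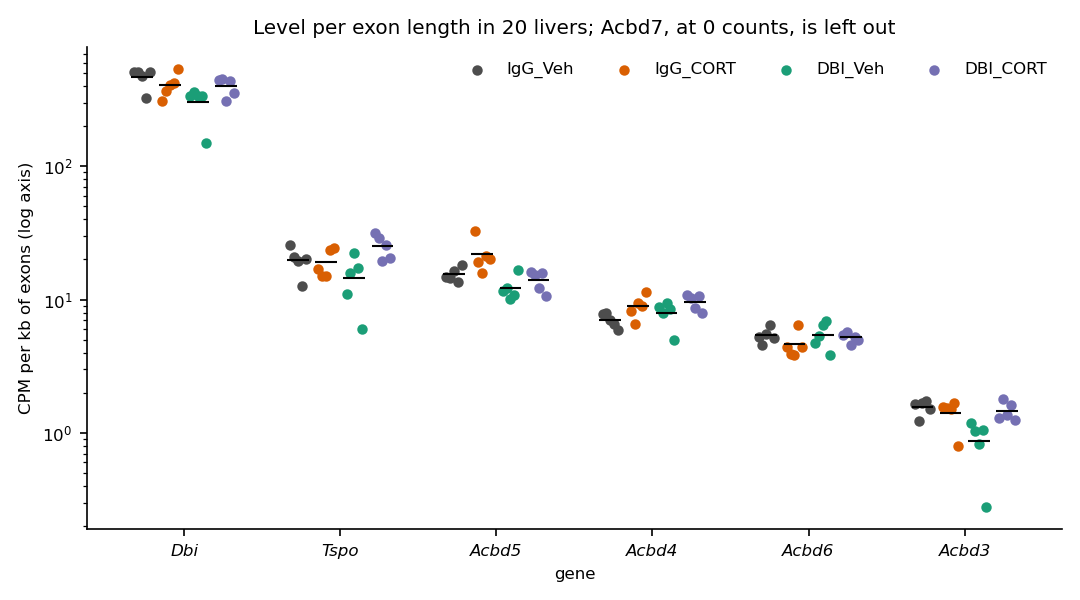
Level of 6 members in CPM per kb of exons (log axis) in each of the 20 livers, with 1 point per liver, colours for the 4 groups and a black bar at each group's mean of 5 livers. Dbi sits between 151 and 538 CPM per kb in every liver, Tspo and Acbd5 overlap, and Acbd3 is the lowest gene with reads.

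No member was called changed in any of the 6 comparisons by the quasi-likelihood test of edgeR, with the threshold at 0.05 on p adjusted after Benjamini and Hochberg over the 16071 genes tested. For IgG_CORT minus IgG_Veh 0 of 6 members were called where 3.2% of all genes tested were, for DBI_CORT minus IgG_CORT 0 of 6 where 0.958% were, and for DBI_CORT minus DBI_Veh 0 of 6 where 0.305% were. For DBI_Veh minus IgG_Veh it was 0 of 6 beside 5.14%, for DBI_CORT minus IgG_Veh 0 of 6 beside 0.0809%, and for the interaction of antibody and CORT 0 of 6 beside 0.143%. At an unadjusted p of 0.05 or less the members counted 1, 1, 2, 2, 1 and 2 of 6 in that order, where 15.6%, 12.5%, 12.7%, 20.6%, 7.59% and 10.6% of all genes tested were. DESeq2's Wald test called 1 member for DBI_CORT minus IgG_CORT and 2 for DBI_Veh minus IgG_Veh, and limma voom with a weight per liver called 2 for DBI_Veh minus IgG_Veh and 1 for DBI_CORT minus IgG_Veh. Without the 3 livers that stood apart edgeR called 0 in each comparison. A count of 0 of 6 is near each of these shares.

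**Figure D2:**
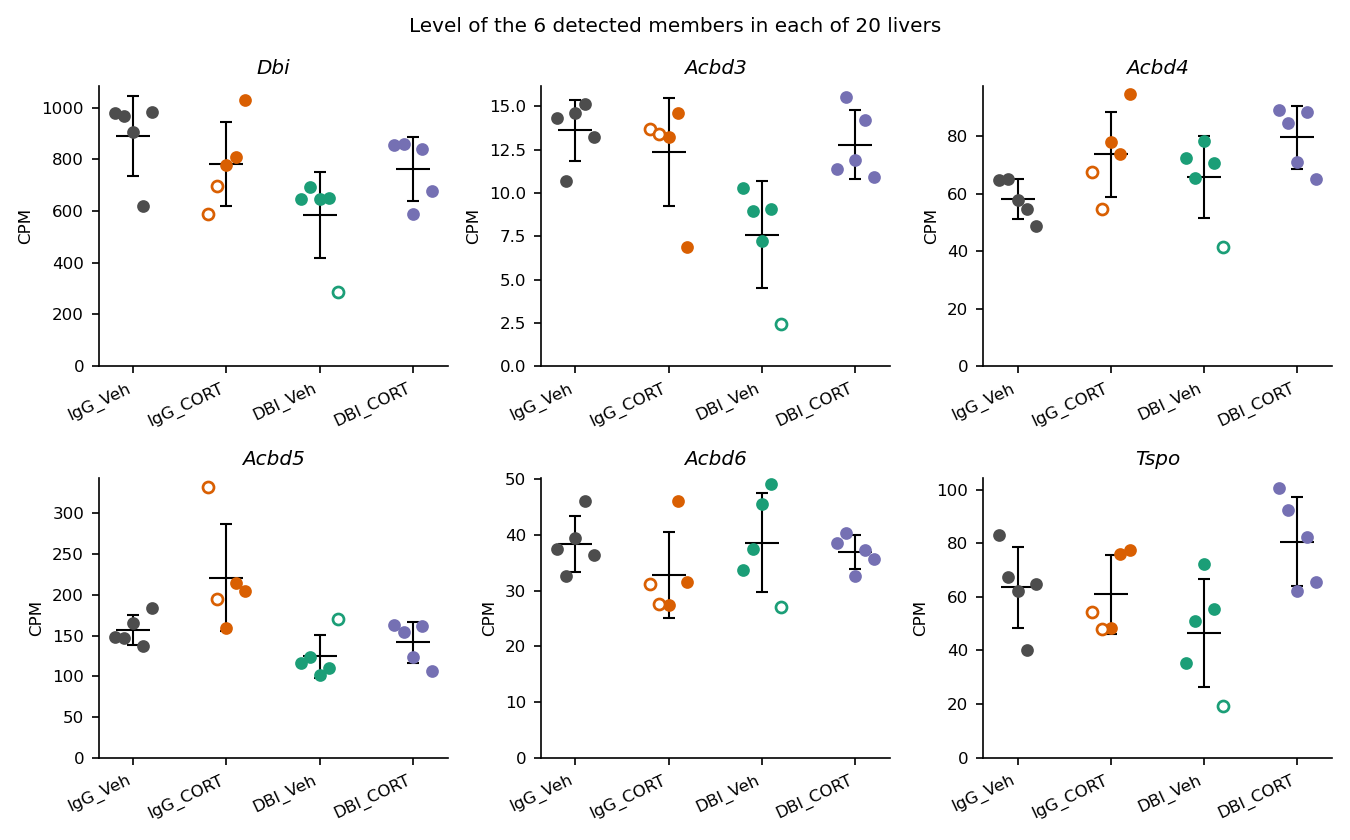
CPM of the 6 members with reads, 1 point per liver, in the 4 groups of 5 livers, with the mean (bar) and SD (whiskers), and axes that start at 0. Open points are replicate 5 of DBI_Veh and replicates 1 and 2 of IgG_CORT, the livers that stood apart. The DBI_Veh points of Dbi and Acbd3 lie mostly below those of IgG_Veh.

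Dbi, the gene of ACBP itself, had its highest mean in IgG_Veh and its lowest in DBI_Veh. Its CPM in replicates 1 to 5 were 979, 968, 906, 619 and 982 in IgG_Veh and 588, 697, 780, 808 and 1029 in IgG_CORT. They were 648, 694, 647, 649 and 289 in DBI_Veh and 855, 858, 588, 839 and 676 in DBI_CORT. In IgG_Veh 4 livers lay close together and replicate 4 far below them, within the range of DBI_Veh. In DBI_Veh 4 livers lay within a narrow band and replicate 5 was the lowest of all 20. The group means were 891 ± 155, 781 ± 163, 585 ± 167 and 763 ± 124 CPM (SD, n = 5) in the order IgG_Veh, IgG_CORT, DBI_Veh and DBI_CORT. IgG_CORT differed by less than the spread from IgG_Veh and from DBI_CORT, its neighbours when the means are ranked.

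The question whether CORT moved Dbi transcripts in the liver is met by 2 comparisons. Under the isotype, the log2 fold change of Dbi was -0.19 with a 95% interval from -0.61 to 0.23 (adjusted p = 0.762), which is a difference of -12.4% with an interval from -34.6% to 17.5%. Under the antibody it was 0.38, from -0.04 to 0.81 (adjusted p = 0.454). Neither passed the test of edgeR, and the intervals leave room for a moderate difference in either direction under the isotype. The difference between these responses, the interaction, was 0.57 from -0.02 to 1.17 (edgeR adjusted p = 0.505), and 0.25 from -0.26 to 0.75 without the 3 livers.

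The antibody against ACBP without CORT went with the lowest Dbi level, short of the threshold in the main test. DBI_Veh minus IgG_Veh gave a log2 fold change of -0.61 ± 0.21 (SE), from -1.03 to -0.18, with an unadjusted p of 0.00668 and an edgeR adjusted p of 0.0803. Each of 3 settings moved it past the threshold: DESeq2's Wald test (-0.60, adjusted p = 0.0267), limma voom with a weight per liver (-0.57, adjusted p = 0.0131) and edgeR without replicate 4 of IgG_Veh (-0.71, adjusted p = 0.0349). Without replicate 5 of DBI_Veh the edgeR value was -0.44, with an adjusted p of 0.17. Under CORT, the antibody against the isotype gave a log2 fold change of -0.03 from -0.45 to 0.39 (edgeR adjusted p = 0.985), which voom gave as 0.04.

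In IgG_Veh, DBI_Veh and DBI_CORT the liver lowest in Dbi was also the lowest of its group in hepatocyte markers, while in IgG_CORT it was the highest. The 8 markers summed to 68432 to 118063 CPM in IgG_Veh, 83850 to 138274 in IgG_CORT, 38772 to 92482 in DBI_Veh and 73197 to 105683 in DBI_CORT. Replicate 5 of DBI_Veh and replicate 4 of IgG_Veh, the low Dbi livers of their groups, were the lowest and the second lowest of the 20 livers in this sum. Replicate 1 of IgG_CORT and replicate 3 of DBI_CORT, each with 588 CPM of Dbi and next after replicate 5 of DBI_Veh, held the highest sum (138274) and a low one (73197). Signs of library quality moved with the first pair: replicate 5 of DBI_Veh and replicate 4 of IgG_Veh had 5.75% and 4.84% of read pairs not aligned (the other livers at most 4.08%) and 37.0% and 36.6% counted on genes (the others at least 38.2%). None of the 8 markers was called in DBI_Veh minus IgG_Veh, and their median log2 fold change was -0.46 against -0.02 over all genes tested by edgeR. Of 7 stellate cell markers, 3 fell in that comparison (edgeR), where 5.14% of all genes tested were called. They were Lrat by 1.01, Dcn by 0.89 and Col3a1 by 0.97 on the log2 scale, and the median of the 7 was -0.89. Of 5 cholangiocyte markers 0 were called there (edgeR), with 4 below and 1 above 0 and a median of -0.80. The part of these values in the Dbi difference was not tested.

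**Figure D3:**
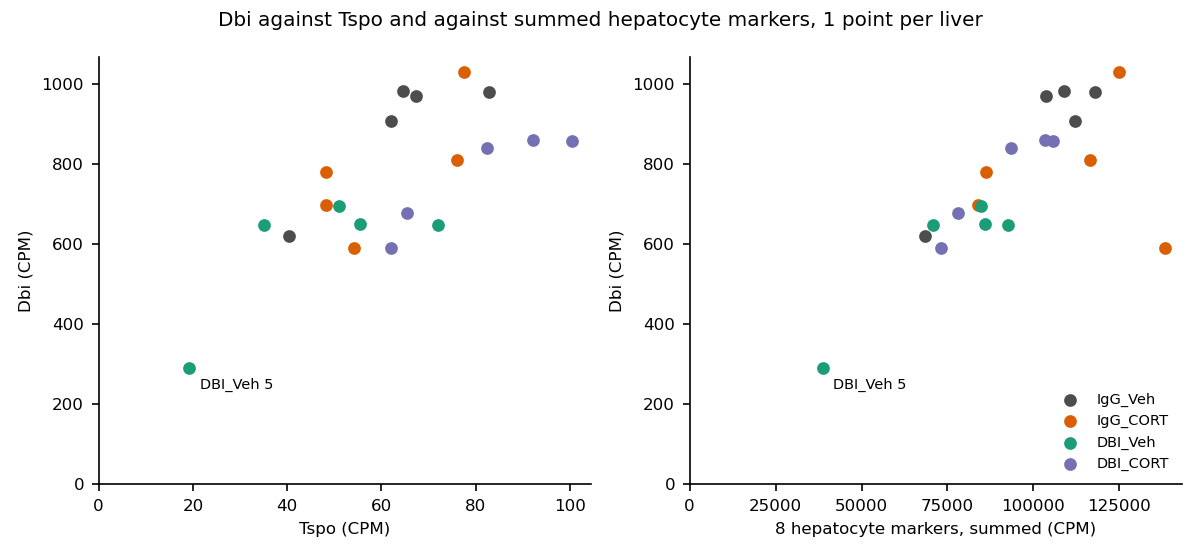
Dbi in CPM against Tspo in CPM (left) and against the summed CPM of 8 hepatocyte markers (right), 1 point per liver in the colours of the 4 groups, both axes from 0. Replicate 5 of DBI_Veh is lowest on all 3 measures, and the liver with the highest marker sum, replicate 1 of IgG_CORT, has 588 CPM of Dbi.

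Tspo, the mitochondrial partner, was highest in DBI_CORT. Its CPM in replicates 1 to 5 were 82.9, 67.4, 62.1, 40.3 and 64.7 in IgG_Veh and 54.2, 48.1, 48.3, 76.0 and 77.6 in IgG_CORT. They were 35.2, 51.0, 72.0, 55.4 and 19.3 in DBI_Veh and 100.4, 92.2, 62.1, 82.4 and 65.5 in DBI_CORT. All groups overlapped, and DBI_Veh and DBI_CORT met only through replicate 3 of DBI_Veh. The means were 63.5 ± 15.3, 60.9 ± 14.8, 46.6 ± 20.1 and 80.5 ± 16.6 CPM (SD, n = 5) in the order IgG_Veh, IgG_CORT, DBI_Veh and DBI_CORT.

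CORT under the antibody gave the largest difference of Tspo among the pairs of groups. The log2 fold change was 0.79, from 0.27 to 1.31, with an unadjusted p of 0.00418 and an edgeR adjusted p of 0.161, which was 0.0506 in voom and 0.308 without the 3 livers (0.59). CORT under the isotype gave -0.06 from -0.58 to 0.45 (edgeR adjusted p = 0.955), a sign that turned to 0.08 without the 3 livers. The interaction was 0.85 from 0.12 to 1.58 (edgeR adjusted p = 0.356) and 0.51 from -0.14 to 1.16 without them. The antibody gave -0.45 from -0.96 to 0.07 under vehicle (edgeR adjusted p = 0.324) and 0.40 from -0.11 to 0.92 under CORT (adjusted p = 0.568). Macrophages are a known source of TSPO, and the 11 Kupffer cell and macrophage markers summed to 481 to 1022 CPM in IgG_Veh, 168 to 465 in IgG_CORT, 581 to 992 in DBI_Veh and 591 to 846 in DBI_CORT. In IgG_CORT minus IgG_Veh 6 of the 11 fell (edgeR), with Tspo at -0.06. In DBI_CORT minus IgG_CORT 3 of the 11 rose (edgeR), all 11 lay above 0 with a median log2 fold change of 1.03, and Tspo was at 0.40. In DBI_CORT minus DBI_Veh, with Tspo at 0.79, 0 of the 11 were called (edgeR). There 6 markers lay above and 5 below 0, with a median of 0.02. For DBI_Veh minus IgG_Veh 0 were called and the median was -0.32, with Tspo at -0.45. The part of these cells in the Tspo values was not tested.

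Acbd3, whose protein binds giantin at the Golgi and is also known as a partner of TSPO, had the largest log2 difference of any member. Its CPM in replicates 1 to 5 were 14.3, 10.7, 14.6, 15.2 and 13.2 in IgG_Veh and 13.7, 13.4, 13.2, 14.6 and 6.90 in IgG_CORT. They were 10.3, 8.94, 7.24, 9.09 and 2.41 in DBI_Veh and 11.4, 15.5, 11.9, 14.2 and 10.9 in DBI_CORT. The 5 livers of DBI_Veh lay below every liver of IgG_Veh and of DBI_CORT, and replicate 5 of DBI_Veh, with 50 counts, was the lowest of all 20. Acbd3 was thus the 1 of 6 members whose ranges did not overlap in DBI_Veh against IgG_Veh, where 7.13% of all genes tested did not overlap, and the 1 of 6 in DBI_CORT against DBI_Veh, where 2.74% did not. For IgG_CORT against IgG_Veh (5.04% of genes), DBI_CORT against IgG_CORT (3.22%) and DBI_CORT against IgG_Veh (3.31%) it was 0 of 6 members.

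The fit placed both differences of Acbd3 short of the threshold. DBI_Veh minus IgG_Veh gave -0.84 ± 0.28 (log2 fold change and SE), with an interval from -1.42 to -0.27 and an edgeR adjusted p of 0.0733. DESeq2's Wald test called it (-0.84, adjusted p = 0.0368). Without the 3 livers it was -0.62, with an edgeR adjusted p of 0.14. CORT under the antibody gave 0.75 from 0.17 to 1.33 (edgeR adjusted p = 0.243), and CORT under the isotype gave -0.14 from -0.71 to 0.43 (adjusted p = 0.897). The interaction was 0.89 from 0.08 to 1.70 (edgeR adjusted p = 0.4).

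Acbd5, the peroxisomal tether that binds very-long-chain acyl-CoA, was highest in IgG_CORT. Its CPM in replicates 1 to 5 were 149, 147, 166, 138 and 184 in IgG_Veh and 332, 195, 159, 214 and 205 in IgG_CORT. They were 117, 124, 102, 110.0 and 170.0 in DBI_Veh and 163, 154, 123, 161 and 107 in DBI_CORT. Replicate 1 of IgG_CORT, one of the livers that stood apart, was far above the others, and the lowest liver of IgG_CORT lay inside the ranges of IgG_Veh and DBI_CORT. The means were 157 ± 18.3, 221 ± 65.6, 124 ± 26.8 and 142 ± 25.2 CPM (SD, n = 5) in the order IgG_Veh, IgG_CORT, DBI_Veh and DBI_CORT.

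The antibody under CORT gave a log2 fold change of Acbd5 of -0.64 ± 0.19 (SE), from -1.02 to -0.26, with an unadjusted p of 0.00166 and an edgeR adjusted p of 0.0898. It passed in DESeq2's Wald test (-0.66, adjusted p = 0.0274) and without replicate 3 of IgG_CORT (-0.74, edgeR adjusted p = 0.0335). It was -0.44 without replicate 1 of IgG_CORT (edgeR adjusted p = 0.301). CORT under the isotype gave 0.50 from 0.12 to 0.88 (edgeR adjusted p = 0.147), and 0.30 without the 3 livers. The antibody under vehicle gave -0.33 from -0.71 to 0.05 (edgeR adjusted p = 0.317), which voom called at -0.46 with an adjusted p of 0.0385, and CORT under the antibody gave 0.19 from -0.19 to 0.56 (adjusted p = 0.751).

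Acbd4 and Acbd6 reached at most 0.45 and 0.23 (absolute log2 fold change) in any pair of groups. Acbd4, the second tether of peroxisomes, ranged from 48.9 to 65.1 CPM in IgG_Veh, 54.7 to 94.9 in IgG_CORT, 41.4 to 78.3 in DBI_Veh and 65.1 to 89.1 in DBI_CORT. DBI_CORT minus IgG_Veh gave 0.45 from 0.10 to 0.80 (edgeR adjusted p = 0.422), which voom called at 0.48 with an adjusted p of 0.0237. Acbd6, the partner of N-myristoyltransferases, ranged from 32.6 to 46.1 CPM in IgG_Veh, 27.4 to 46.1 in IgG_CORT, 27.03 to 49.1 in DBI_Veh and 32.6 to 40.4 in DBI_CORT. Its largest log2 fold change between 2 groups was -0.23, for CORT under the isotype, with an interval from -0.59 to 0.13 (edgeR adjusted p = 0.612).

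**Figure D4:**
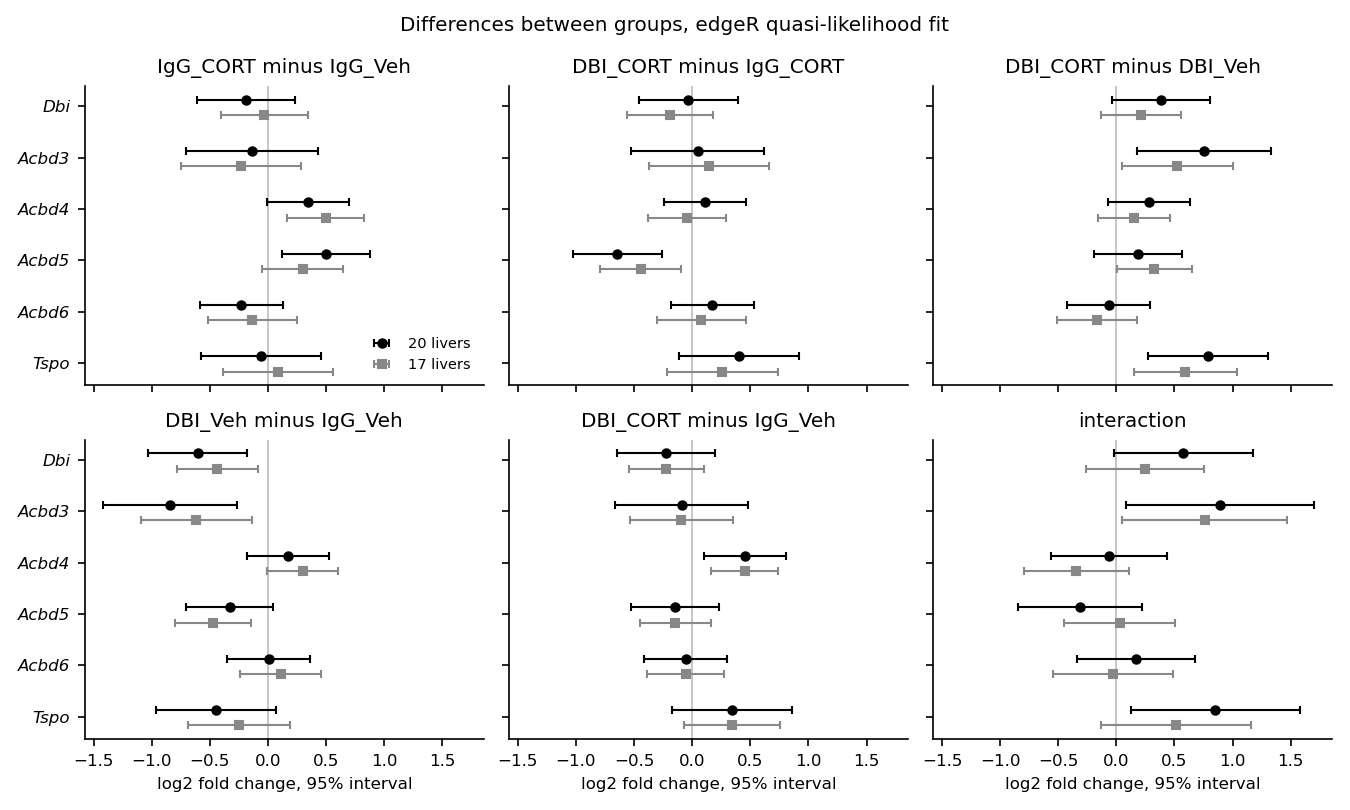
Log2 fold change of 6 members in the 6 comparisons, with the 95% interval of the edgeR quasi-likelihood fit, from all 20 livers (black circles) and from 17 livers without the 3 that stood apart (grey squares). In DBI_Veh minus IgG_Veh, Dbi (-0.61) and Acbd3 (-0.84) have intervals below 0, and none of the differences passed the adjusted threshold.

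Over the 6 members tested, the median log2 fold change was -0.10 for IgG_CORT minus IgG_Veh, 0.08 for DBI_CORT minus IgG_CORT, 0.33 for DBI_CORT minus DBI_Veh and -0.39 for DBI_Veh minus IgG_Veh, where the medians over all genes were 0.00, 0.01, 0.01 and -0.02 by edgeR. DBI_Veh is in both of the last pairs of groups and IgG_CORT in both of the first. The biological coefficient of variation, the spread between livers of a group beyond counting error, was 0.242 for Dbi, 0.284 for Tspo, 0.309 for Acbd3 and 0.206 to 0.221 for the other members tested, against a common value of 0.481.

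The genes most like Dbi over the 20 livers were Psmb4, a proteasome subunit (Pearson r of log2 CPM 0.952), Cox8a, a subunit of cytochrome c oxidase (0.945), and Cops6, a subunit of the COP9 signalosome (0.931), out of 12110 genes at a mean of 1 CPM or more. Without replicate 5 of DBI_Veh these were 0.878, 0.860 and 0.861, and Dynll2, a dynein light chain, came first with 0.919. Most like Tspo were Pemt, which makes phosphatidylcholine (0.941), the ribosomal protein gene Rps9 (0.921) and Apoe, the apolipoprotein E gene (0.920). Over 19 livers Pemt was again first, with 0.885. Dbi and Tspo had r = 0.807 and a Spearman rho of 0.650 over 20 livers, and r = 0.571 without the 2 livers farthest from the median of Dbi. Within the groups, each of 5 livers, r was 0.93 in IgG_Veh, 0.67 in IgG_CORT, 0.86 in DBI_Veh and 0.94 in DBI_CORT. These values describe points that share a library scaling, pool 4 groups except where a group is named, and were not tested.

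Genes around ACBP were read from 9 lists with 109 genes, of which 88 were tested. In DBI_Veh minus IgG_Veh 4 rose and 7 fell by edgeR, beside 5.14% of all genes called, and in IgG_CORT minus IgG_Veh 5 rose and 3 fell, beside 3.2%. In the other comparisons 0 of 88 were called, with 15 at an unadjusted p of 0.05 or less for DBI_CORT minus IgG_CORT (12.5% of all genes), 23 for DBI_CORT minus DBI_Veh (12.7%), 12 for DBI_CORT minus IgG_Veh (7.59%) and 13 for the interaction (10.6%). There DESeq2 called 2, 4, 3 and 5, and voom 0, 7, 9 and 0. Without the 3 livers that stood apart edgeR called 6 in DBI_Veh minus IgG_Veh and 7 in IgG_CORT minus IgG_Veh.

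On the receptor side, 4 of 19 GABA-A receptor subunits were tested and none was called in any comparison by edgeR, with the tested ones at a median log2 fold change of -0.89 in DBI_Veh minus IgG_Veh. Eci2, an enoyl-CoA isomerase that carries an acyl-CoA binding domain, had 121 ± 22.5 CPM in IgG_Veh and 200 ± 51.8 in IgG_CORT (SD, n = 5). In DBI_Veh it had 174 ± 56.3 and in DBI_CORT 163 ± 38.9. Its log2 fold change was 0.72 with CORT under the isotype (edgeR adjusted p = 0.0591) and -0.09 under the antibody (adjusted p = 0.915). The antibody under vehicle gave 0.52 (edgeR adjusted p = 0.151) and the interaction -0.81 (adjusted p = 0.278). Its list of 2 had 0 called.

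Among enzymes that make, take up or use acyl-CoA, 1 of 14 rose and 1 fell in each of these comparisons. Acsl5, an acyl-CoA synthetase, fell by 1.03 on the log2 scale in DBI_Veh minus IgG_Veh (edgeR adjusted p = 0.00238), in each of 18 alternative settings, and by 0.66 in IgG_CORT minus IgG_Veh (adjusted p = 0.0333), in 9 of 18. Slc27a2, which activates very-long-chain fatty acids, rose by 0.71 with CORT under the isotype (edgeR adjusted p = 0.0136), and Slc27a1, a fatty acid transporter, by 1.04 with the antibody under vehicle (adjusted p = 0.0145). The list's median was 0.01 for CORT and -0.05 for the antibody, near those of all genes.

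Of the 17 genes of peroxisomal contact, import and oxidation around ACBD4 and ACBD5, 2 rose with CORT under the isotype. They were Pex11a, of peroxisome division, by 1.05 (edgeR adjusted p = 0.0102), and Hsd17b4, an enzyme of peroxisomal oxidation, by 0.71 (adjusted p = 0.0344, called in 10 of 18 settings and at 0.107 without replicate 5 of IgG_CORT). In DBI_Veh minus IgG_Veh 2 of the 17 fell, both proteins of the endoplasmic reticulum membrane. Mospd2 fell by 0.64 (edgeR adjusted p = 0.0236) and Vapa, the anchor that ACBD5 binds, by 0.52 (adjusted p = 0.0443), the latter at 0.106 without replicate 5 of DBI_Veh. Around ACBD3, 1 of 6 Golgi partners rose in that comparison: Golgb1, which encodes giantin, by 0.89 (edgeR adjusted p = 0.0286 and 0.0861 without replicate 5 of DBI_Veh). Neither N-myristoyltransferase gene was called.

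Of 14 genes of TSPO partners and mitochondrial cholesterol use, 2 fell with the antibody under vehicle: Slc25a5, an adenine nucleotide carrier, by 1.07 (edgeR adjusted p = 0.0491), and Vdac3, a channel of the outer mitochondrial membrane, by 0.70 (adjusted p = 0.0323). Without replicate 5 of DBI_Veh their adjusted p were 0.109 and 0.0855. Cyp27a1, the sterol 27-hydroxylase of mitochondria, fell by 0.78 with CORT under the isotype (edgeR adjusted p = 0.0103), in each of 18 settings. Of 16 genes of autophagy, the route by which ACBP leaves cells, 2 rose and 2 fell with the antibody under vehicle. Tfeb, which controls lysosomal genes, rose by 0.98 (edgeR adjusted p = 0.00815) and Atg16l1 by 0.76 (adjusted p = 0.00833), while Gabarapl2 fell by 0.94 (adjusted p = 0.015) and Atg3 by 0.59 (adjusted p = 0.042, and 0.106 without replicate 5 of DBI_Veh). Tfeb also rose by 0.72 with CORT under the isotype (edgeR adjusted p = 0.0457), in 5 of 18 settings.

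Several calls of the antibody under vehicle were lost with any of several single livers of either group left out, not replicate 5 of DBI_Veh alone. Of 18 alternative settings, Vapa was called in 6, Slc25a5 in 7, Vdac3 and Atg3 in 9, Golgb1 in 11, Mospd2 and Slc27a1 in 15 and Gabarapl2 in 17.

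Of 13 hormone receptors and response genes, Fkbp5, a glucocorticoid response gene, rose and Srebf1, a regulator of lipid synthesis, fell with CORT under the isotype. Fkbp5 was at 39.3 ± 9.87 CPM in IgG_Veh, 128 ± 40.0 in IgG_CORT, 63.0 ± 24.2 in DBI_Veh and 76.8 ± 19.8 in DBI_CORT (SD, n = 5). It rose by 1.70 on the log2 scale under the isotype (edgeR adjusted p = 0.000722), in each of 18 settings, while the value under the antibody was 0.28 (adjusted p = 0.72) and the difference of the responses -1.42 (adjusted p = 0.0935). Other glucocorticoid response genes of the list had lower means with CORT under the isotype and were not called: Tsc22d3 had 118 CPM in IgG_Veh and 74.1 in IgG_CORT (log2 fold change -0.67, edgeR adjusted p = 0.384), and Per1 had 31.7 and 14.3 CPM (-1.16, adjusted p = 0.544). Srebf1 fell by 0.81 (edgeR adjusted p = 0.0411, and 0.117 without the 3 livers, called in 9 of 18 settings). Of the receptor genes, Nr3c1, the glucocorticoid receptor, ranged from 31.5 to 63.3 CPM and Thrb, the thyroid hormone receptor beta that acts on Dbi, from 13.6 to 36.5 CPM over the livers, and neither was called in any comparison by edgeR.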

How the data were processed

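Liver RNA of 20 mice was sequenced in read pairs by the authors, who aligned the pairs with HISAT2 and counted them on genes with HTSeq in union mode, with pairs on overlapping genes counted for each. The authors deposited the raw counts of each gene in each liver, without normalization. The submitters' processing notes name mm10 and the study's methods GRCm39, and of 48440 gene identifiers 44278 were found in GENCODE M39 and 35 with the same version, so that coordinates are those of M39 and lengths are approximate. Lines for pairs on no gene were left out (a median of 43.7% of pairs fell on no feature). Groups and replicate numbers came from the labels, and no column was left over.

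Tests were run in R 4.3.3 with edgeR 4.0.16 (TMM, filterByExpr, robust quasi-likelihood fit) in 1 model of the 4 groups. The Benjamini-Hochberg adjustment was over 16071 genes. The code was also run on simulated counts that had the same spread for every gene and no livers that stood apart. That run checks the code and does not show how the tests behave on data with such livers. The p-values weigh a difference between groups against the spread between mice within groups, estimated over all 4 groups of 5 mice. DESeq2 1.42.0, limma 3.58.1 (voom), other filters and scalings, each liver left out and the replicate number as a block were alternatives, and leaving out 3 livers was added after seeing the data. The members and the gene lists were chosen with earlier results of these data known. Genes named were the members, the 3 genes of most similar pattern to Dbi and to Tspo (without predicted, Rik, pseudo- and overlapping genes), the called genes of each list (at most 4 per list and comparison), and Eci2, Nr3c1, Thrb and Fkbp5; 1 further gene of this rule and 1 sequence are not reported here. Dynll2, Tsc22d3, Per1 and 3 stellate cell markers were named after their values were seen, and other cell type markers are given as sums and counts. No 2 livers of a group were alike enough to be 1 library (lowest chi-square per degree of freedom 12.4).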

Additional observations from a re-analysis of the deposited data

Results flagged for a closer look

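In 24 sets of 5 livers (6 members in 4 groups), 4 held a liver whose gap to the next was over 0.71 of the set's range, where chance gives about 1 set in 20. Dbi in replicate 4 of IgG_Veh was 619 CPM with the next liver at 906. Dbi in replicate 5 of DBI_Veh was 289 CPM with the next at 647. Acbd3 in replicate 5 of IgG_CORT was 6.90 CPM with the next at 13.2. Acbd6 in replicate 4 of IgG_CORT was 46.1 CPM with the next at 31.5. The former pair of livers also had the lowest summed hepatocyte markers of the 20, 68432 and 38772 CPM, and the part of that in the values was not tested.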

How the results depend on the processing

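Each member was refitted in 6 comparisons under 18 to 27 alternatives. Of 702 such values, 664 kept their direction and their side of the threshold, 9 passed it and 29 turned in direction. The number of members called, 0 at first, became 1 for DBI_CORT minus IgG_CORT with DESeq2's Wald test and 0 to 1 with a liver left out. For DBI_Veh minus IgG_Veh it became 2 with DESeq2's Wald test, 2 with voom, 0 to 1 with a liver left out and 1 with the replicate block (Acbd3, -0.95, edgeR adjusted p = 0.0488). For DBI_CORT minus IgG_Veh it became 1 with voom. No other setting changed a count, the rules with a log2 fold change of at least 1 included.

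Values that turned in direction were small. They were Tspo for IgG_CORT minus IgG_Veh (0.0815 without the 3 livers), Dbi for DBI_CORT minus IgG_CORT (0.0364 with voom) and Acbd4 in that comparison (-0.0438 without the 3 livers). Acbd6 was -0.00197 for DBI_Veh minus IgG_Veh with a filter of 1 count and -0.00353 with the replicate block, and 0.0305 for DBI_CORT minus IgG_Veh with voom. For the interaction, Acbd5 was 0.0299 without the 3 livers and Acbd6 -0.0475 with voom and -0.0298 without the 3 livers. With a liver left out, Acbd3 ran from -0.218 to 0.00977 and Tspo from -0.188 to 0.0530 for IgG_CORT minus IgG_Veh. Dbi ran from -0.112 to 0.0857 and Acbd3 from -0.106 to 0.112 for DBI_CORT minus IgG_CORT, and Acbd6 from -0.171 to 0.0400 for DBI_CORT minus DBI_Veh. Acbd6 ran from -0.0968 to 0.104 for DBI_Veh minus IgG_Veh and from -0.115 to 0.0164 for DBI_CORT minus IgG_Veh, and Acbd4 from -0.168 to 0.0479 for the interaction. The cause was not tested.

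The replicate numbers did not pair the livers: of 30 same-numbered pairs 0 correlated over 0.1 (-0.0999 to 0.0969). With the longest transcript as length, 5 levels per kb moved by more than the spread between livers and 2 ranks changed. Of 396 refitted values of the other named genes, 94 lost a call, 3 gained one and 0 turned in direction. At the depth of these libraries Acbd7 could not be told from 0, and with 5 livers a group the 95% interval of Dbi for CORT under the isotype ran from -34.6% to 17.5%.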

Other observations

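For several pairs of members, though not for all, the likeness rested largely on 1 liver. Dbi and Acbd3 had a Pearson r of log2 CPM of 0.665 over 20 livers and 0.0837 over 19, without replicate 5 of DBI_Veh. Acbd3 and Tspo went from 0.584 to 0.0135, and Dbi and Acbd4 from 0.494 to 0.128. Dbi and Tspo had 0.807 with and 0.589 without that liver, and Acbd4 and Tspo had 0.685 with and 0.498 without it. Acbd5 and Acbd6 had -0.365 with and -0.363 without that liver. Replicate 5 of DBI_Veh was the lowest of the 20 livers for Dbi, Acbd3, Acbd4, Acbd6 and Tspo, and 15th from the lowest for Acbd5. These are values over libraries that share a scaling and pool 4 groups, and they were not tested.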
